A study of Mus musculus with 24 samples.

Results

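Ccdc3, Pik3ap1, Angpt2, Atp2c2, Tubb2b, Afap1l1 and Clic6 are 7 of the 36528 gene models counted in mouse small-intestinal organoids. They were picked by symbol because their transcripts were much lower after 24 h with dFz7-21, and the question put to them here is how much of that fall was already there at 6 h. All 7 were matched to a gene ID and all 7 had enough reads to be tested, among 15429 genes that did. Their values in dFz7-21 and DMSO at 24 h chose them, so those values are given as a description without a test.

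Organoids are cultures grown from primary intestinal tissue in which stem cells and their differentiated descendants organise themselves into an epithelium. The series holds 24 libraries of polyadenylated RNA, 4 for each of 6 groups: dFz7-21 for 6 h, Fz7-21S for 6 h, DMSO (the vehicle) for 6 h, and the same 3 treatments for 24 h. In the series text dFz7-21 is a peptide that specifically blocks Frizzled 7, and Fz7-21S is given by its name alone. No strain, genotype, age, dose or medium is stated for any group, and nothing says whether the 4 replicates were separate cultures or animals. The p-values therefore rest on the spread between samples of a group, which may be only technical.

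Frizzled proteins are cell surface receptors for Wnt ligands. When a Wnt binds Frizzled and its co-receptor, beta-catenin is spared from degradation, enters the nucleus and, with TCF/LEF factors, switches target genes on. At the base of the intestinal crypt this signal keeps Lgr5-expressing stem cells, and Lgr5, Axin2, Ascl2 and Sp5 are among its well-known targets. None of the 7 genes is a standard crypt marker. Ccdc3 and Angpt2 encode secreted proteins, Pik3ap1 a signalling adaptor, Atp2c2 a calcium pump, Clic6 a chloride intracellular channel family protein, and Afap1l1 and Tubb2b proteins of the cytoskeleton.

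Library totals ran from 20.4 M to 33.1 M counts. The summed level of 8 mesenchymal marker genes was high in 3 libraries: 795 CPM (counts scaled to a library of 1 M after TMM normalisation) in replicate 3 of dFz7-21 at 24 h, and 163 and 123 CPM in replicates 1 and 2 of DMSO at 6 h, against 7.05 CPM or less elsewhere. Replicate 4 of Fz7-21S at 24 h and replicate 2 of DMSO at 24 h also stood apart, with a median correlation of log2 CPM with the rest of their group of 0.974 and 0.9841. In the other 24 h libraries apart from dFz7-21 replicate 3 (0.9711), it was 0.9919 or more. Where a call for 1 of the 7 genes or for a named relative was lost without the 3 libraries with mesenchymal transcripts, both values are given. Markers of Lgr5 stem cells were lower too: 7 of 7 were called lower with dFz7-21 than with DMSO at 24 h, and 6 of 7 at 6 h (5 without those 3 libraries). Over all genes tested, 17.7% were called lower and 18.2% higher at 24 h, and 5.0% lower and 6.05% higher at 6 h. Markers of other epithelial cells also differed at 24 h, when 6 of 6 Paneth cell markers were called lower and 6 of 6 enterocyte and 4 of 6 goblet cell markers higher with dFz7-21. At 6 h, 0 of 6 Paneth cell markers were called, and 2 of 6 enterocyte and 2 of 6 goblet cell markers were called higher (0 and 0 without the 3 libraries). The part of these markers in the values of the 7 genes was not tested, and Tubb2b at 6 h differed in the opposite direction to the stem cell markers. In bulk RNA, fewer cells of a type and less RNA per cell cannot be told apart.

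The 7 genes were not late in the same degree. With dFz7-21, Ccdc3, Pik3ap1 and Angpt2 stood at about 1.96- to 2.27-fold lower levels than with DMSO already at 6 h, Atp2c2, Afap1l1 and Clic6 at 1.16- to 1.26-fold lower levels, and Tubb2b at a 1.32-fold higher level. At 24 h with dFz7-21 all 7 were lower, by 2.34-fold (Clic6) to 7.01-fold (Ccdc3). Across all genes tested, 17.7% were called lower with dFz7-21 than with DMSO at 24 h. None of the 7 had a dFz7-21 library that overlapped the other groups at 24 h, as for 19.0% of all genes against DMSO and 12.5% against Fz7-21S on the lower side. The name late-falling thus refers to the gap to DMSO, of which more was there at 6 h for 3 genes than for another 3. Tubb2b differed the opposite way at 6 h. Within dFz7-21 itself, the log2 fold change of 24 h over 6 h was largest for Ccdc3 (-1.41) and small for Atp2c2 (-0.32) and Clic6 (-0.19). In DMSO the same change was 1.18 for Atp2c2 and 0.82 for Clic6.

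**Figure D1:**
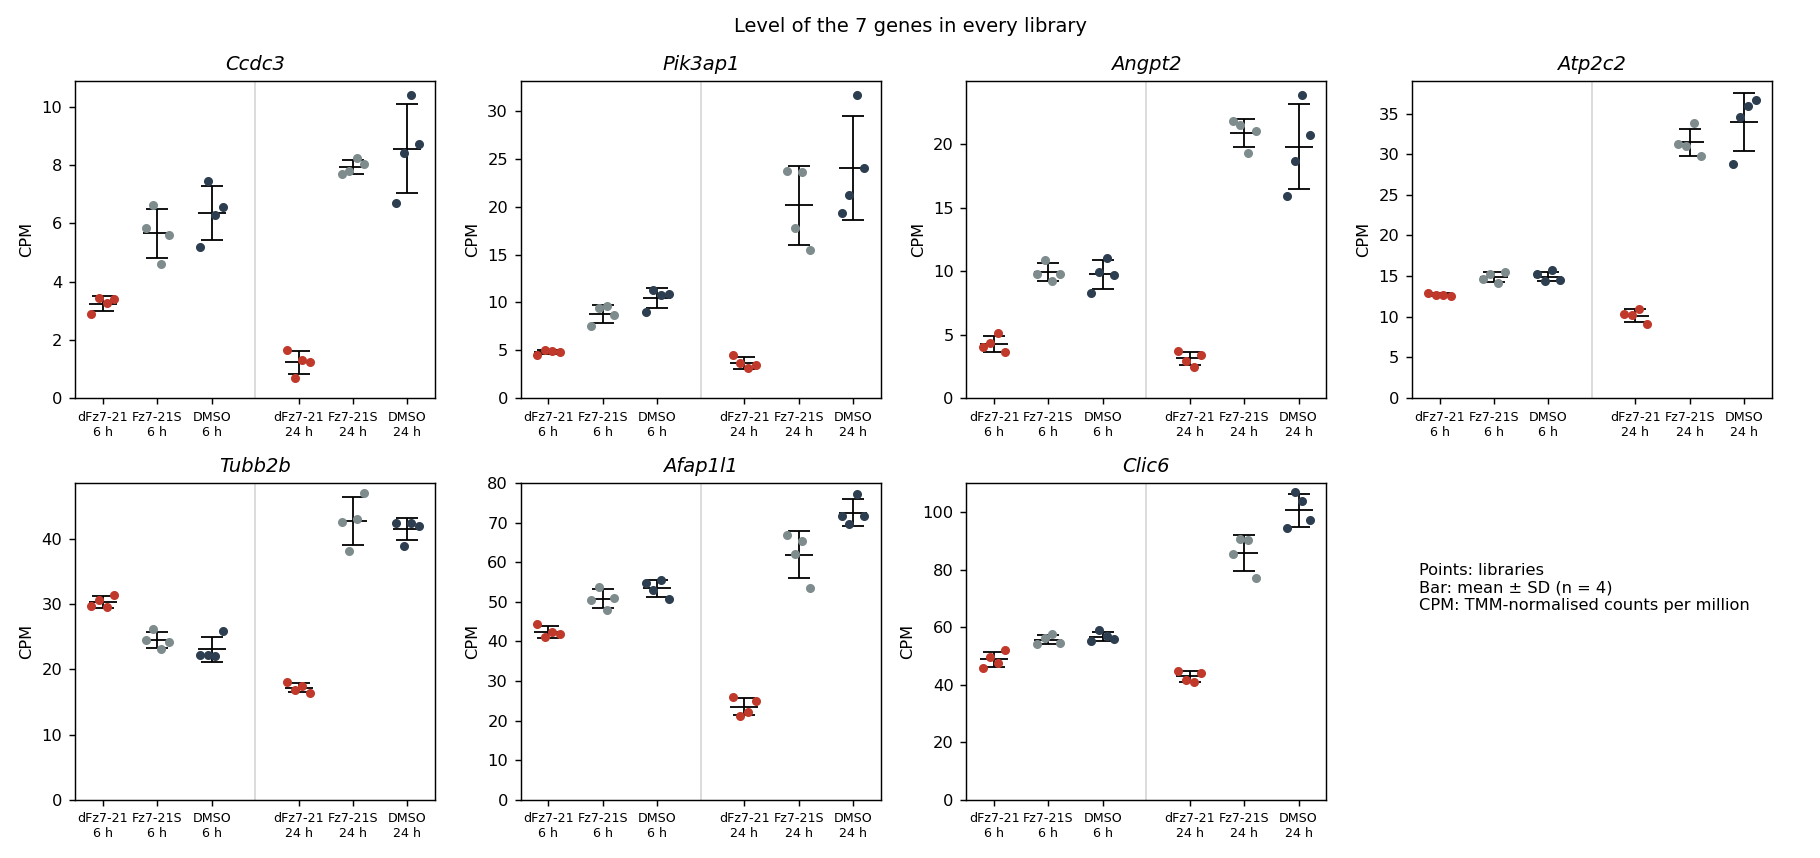
Level of each gene in every library, in CPM (linear axis from 0), with 6 h groups left and 24 h groups right of the line; points are libraries, bars the mean ± SD of 4. At 24 h the dFz7-21 libraries lie below all Fz7-21S and DMSO libraries in each of the 7 panels, and at 6 h they lie above them for Tubb2b.

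Among the secreted proteins, Ccdc3 is a coiled-coil domain protein known from fat and endothelial cells. At 6 h its level was 2.87, 3.43, 3.28 and 3.39 CPM with dFz7-21, 5.85, 6.63, 4.59 and 5.59 CPM with Fz7-21S, and 5.20, 7.45, 6.27 and 6.56 CPM with DMSO. At 24 h it was 1.64, 0.697, 1.30 and 1.25 CPM with dFz7-21, 7.71, 7.78, 8.24 and 8.03 CPM with Fz7-21S, and 6.68, 8.43, 10.4 and 8.73 CPM with DMSO. The dFz7-21 libraries were the lowest at both times, with no overlap, and lower at 24 h than at 6 h. The log2 fold change of dFz7-21 over DMSO was -0.97 ± 0.16 (SE) at 6 h, with an adjusted p of 0.000226 by edgeR's quasi-likelihood test, and -2.81 at 24 h. Against Fz7-21S it was -0.80 at 6 h (adjusted p = 0.00313, edgeR) and -2.70 at 24 h. Ccdc3 was the least counted of the genes at 24 h with dFz7-21, at 16 to 34 reads a library, and its 24 h value there has the largest relative counting error.

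Ccdc3 lies on chromosome 2 (5137311 to 5235967, GRCm38.p6), and most of its exonic sequence is shared with an antisense gene. GENCODE places the lncRNA Gm26776 on the opposite strand over 69.1% of the exonic bases of Ccdc3. Whether the counting used strand is not given in the sources used here, so reads of Ccdc3 and of Gm26776 cannot be told apart, and the Ccdc3 values are uncertain in that respect.

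Angpt2 encodes a ligand of the Tie2 receptor, released mainly by endothelial cells, that acts on blood vessels. It lies on chromosome 8 (18690263 to 18741562). In the 6 h libraries it stood at 4.04, 4.34, 5.09 and 3.61 CPM with dFz7-21, at 9.75, 10.9, 9.23 and 9.75 CPM with Fz7-21S, and at 8.30, 9.92, 11.0 and 9.72 CPM with DMSO. In the 24 h libraries it stood at 3.71, 2.92, 2.47 and 3.37 CPM with dFz7-21, at 21.8, 21.5, 19.4 and 21.0 CPM with Fz7-21S, and at 15.9, 18.7, 23.9 and 20.7 CPM with DMSO. The groups without dFz7-21 were about at the same level at each time and overlapped, while dFz7-21 was below both. For Angpt2 the log2 fold change of dFz7-21 over DMSO was -1.19 ± 0.13 at 6 h (adjusted p = 1.12e-06, edgeR) and -2.67 at 24 h. Over Fz7-21S it was -1.21 at 6 h (adjusted p = 1.23e-06, edgeR) and -2.75 at 24 h. Angpt2 was thus the lowest of the 7 at 6 h relative to either reference.

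The signalling adaptor Pik3ap1, also called BCAP, links the B cell receptor and Toll-like receptors to PI3-kinase. It lies on chromosome 19 (41272541 to 41385102). Its 6 h values were 4.45, 5.01, 4.95 and 4.86 CPM with dFz7-21, 7.56, 9.42, 9.60 and 8.69 CPM with Fz7-21S, and 8.94, 11.4, 10.8 and 11.0 CPM with DMSO. Its 24 h values were 4.53, 3.61, 3.12 and 3.42 CPM with dFz7-21, 23.7, 17.8, 23.7 and 15.5 CPM with Fz7-21S, and 19.3, 21.2, 31.7 and 24.0 CPM with DMSO. No dFz7-21 library reached either of the other groups, and those groups varied most at 24 h, with an SD of 4.16 CPM in Fz7-21S and 5.49 CPM in DMSO. For Pik3ap1 the log2 fold change of dFz7-21 over DMSO was -1.12 ± 0.16 at 6 h (adjusted p = 2.22e-05, edgeR) and -2.71 at 24 h. Over Fz7-21S it was -0.87 at 6 h (adjusted p = 0.00081, edgeR) and -2.46 at 24 h.

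RefSeq promoter windows, from 250 bases before the start to 50 after it on GRCm38.p6, were found in the table used for 2 of the 7 genes, Ccdc3 and Pik3ap1. They are shown because both genes were lower with dFz7-21 at both times. Both strands were searched for CTTTGAT and CTTTGAA, forms of the TCF/LEF motif, and for CAGCTG, an E-box that reads the same on both strands. The capitals mark the single match found.
Ccdc3 (chr2:5137526-5137825, plus strand): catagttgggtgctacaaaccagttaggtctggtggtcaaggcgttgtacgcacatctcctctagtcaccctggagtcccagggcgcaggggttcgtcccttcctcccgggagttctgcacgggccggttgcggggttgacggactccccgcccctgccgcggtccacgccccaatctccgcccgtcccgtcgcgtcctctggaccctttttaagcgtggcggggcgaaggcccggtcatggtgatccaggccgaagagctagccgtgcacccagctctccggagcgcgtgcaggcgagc
Pik3ap1 (chr19:41385053-41385352, minus strand): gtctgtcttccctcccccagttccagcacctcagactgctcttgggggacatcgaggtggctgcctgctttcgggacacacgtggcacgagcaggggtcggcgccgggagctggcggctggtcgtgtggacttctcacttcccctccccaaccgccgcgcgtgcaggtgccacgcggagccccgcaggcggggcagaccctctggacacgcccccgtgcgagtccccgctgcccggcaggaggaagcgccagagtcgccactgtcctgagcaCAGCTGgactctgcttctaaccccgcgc
Neither window holds CTTTGAT or CTTTGAA, which occur in 8.65% of all 32851 windows of the same length, while CAGCTG occurs in 16.3%. Both windows are rich in G and C, at 66.3% for Ccdc3 and 69.7% for Pik3ap1, against a median of 52.7% over all windows. The Ccdc3 window begins at 5137526, inside the stated span of the gene, which begins at 5137311, so the bases before that span were not searched. The absence of a match says only that these letters are not in these windows.

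Atp2c2 encodes a calcium and manganese pump of the Golgi and secretory pathway, known from the mammary gland. It lies on chromosome 8 (119700009 to 119757718). At 6 h it stood at 12.9, 12.7, 12.7 and 12.5 CPM with dFz7-21, 14.7, 15.3, 14.2 and 15.5 CPM with Fz7-21S, and 15.2, 14.4, 15.7 and 14.5 CPM with DMSO. At 24 h it stood at 10.3, 10.2, 11.0 and 9.10 CPM with dFz7-21, 31.2, 31.0, 33.9 and 29.8 CPM with Fz7-21S, and 28.8, 34.6, 35.9 and 36.7 CPM with DMSO. The 6 h difference was small and did not overlap, while at 24 h the dFz7-21 level was 3.34-fold below DMSO. The log2 fold change of dFz7-21 over DMSO was -0.23 ± 0.07 at 6 h (adjusted p = 0.0447, edgeR) and -1.74 at 24 h. Over Fz7-21S it was also -0.23 at 6 h but was not called (adjusted p = 0.0712, edgeR). The call against DMSO was near its threshold: without 1 library it was lost in 10 of 24 cases (adjusted p of 0.0154 to 0.122), and without the 3 libraries with mesenchymal transcripts it was 0.182.

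Clic6 belongs to the chloride intracellular channel family, whose members occur as soluble and as membrane proteins. It lies on chromosome 16 (92498147 to 92541241). In 6 h libraries it was at 45.9, 49.7, 47.5 and 52.1 CPM with dFz7-21, 54.2, 56.3, 57.5 and 54.4 CPM with Fz7-21S, and 55.3, 59.1, 56.9 and 55.8 CPM with DMSO. In 24 h libraries it was at 44.7, 41.8, 41.0 and 44.1 CPM with dFz7-21, 85.4, 90.6, 90.2 and 77.0 CPM with Fz7-21S, and 94.7, 107, 104 and 97.3 CPM with DMSO. The dFz7-21 level hardly moved between the times, and the gap opened as the other 2 groups stood higher at 24 h. The log2 fold change of dFz7-21 over DMSO was -0.22 ± 0.06 at 6 h (adjusted p = 0.0113, edgeR) and -1.23 at 24 h. Over Fz7-21S it was -0.19 at 6 h (adjusted p = 0.0445, edgeR) and -1 at 24 h. The call against DMSO was lost when replicate 1 of dFz7-21 at 6 h was left out (adjusted p = 0.0603) and without the 3 libraries with mesenchymal transcripts (0.123), and the call against Fz7-21S was lost in 14 of 24 cases that left out 1 library (0.00539 to 0.178).

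Afap1l1 encodes a relative of the actin filament-associated protein that binds cortactin at actin-rich adhesions. It lies on chromosome 18 (61730262 to 61786662). With dFz7-21 for 6 h it stood at 44.4, 41.0, 42.3 and 41.9 CPM, against 50.5, 53.7, 47.9 and 51.0 CPM with Fz7-21S and 54.7, 52.9, 55.5 and 50.7 CPM with DMSO. With dFz7-21 for 24 h it stood at 25.9, 21.2, 22.1 and 24.9 CPM, against 66.9, 62.2, 65.3 and 53.4 CPM with Fz7-21S and 71.6, 69.6, 77.3 and 71.8 CPM with DMSO. The dFz7-21 libraries were lowest at both times with no overlap, and Fz7-21S 24 h libraries also lay below all DMSO 24 h libraries. Its log2 fold change of dFz7-21 over DMSO was -0.33 ± 0.07 at 6 h (adjusted p = 0.00145, edgeR) and -1.63 at 24 h. Over Fz7-21S it was -0.26 at 6 h (adjusted p = 0.0186, edgeR; 0.000846 to 0.0843 without 1 library, with the call lost in 3 of 24 cases) and -1.40 at 24 h. On the opposite strand, 1500015A07Rik overlaps 4.0% of its exonic bases.

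Tubb2b encodes a beta-tubulin, a building block of microtubules that is known chiefly from developing neurons. It lies on chromosome 13 (34127008 to 34130354). Its 6 h level was 29.7, 30.7, 29.6 and 31.4 CPM with dFz7-21, 24.5, 26.2, 23.1 and 24.2 CPM with Fz7-21S, and 22.2, 22.2, 22 and 25.9 CPM with DMSO. Its 24 h level was 18.0, 16.8, 17.5 and 16.4 CPM with dFz7-21, 42.6, 38.1, 43.1 and 47.1 CPM with Fz7-21S, and 42.5, 39.0, 42.5 and 42.0 CPM with DMSO. The dFz7-21 libraries were the highest at 6 h and the lowest at 24 h, without overlap at either time. On the log2 scale, dFz7-21 over DMSO was 0.40 ± 0.07 at 6 h (adjusted p = 0.000198, edgeR) and -1.27 at 24 h. Over Fz7-21S it was 0.31 at 6 h (adjusted p = 0.00404, edgeR) and -1.31 at 24 h. The 6 h difference over DMSO stayed positive and called when any 1 library was left out (0.37 to 0.46).

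Near-identical copies make the Tubb2b counts uncertain, and the end of the coding sequence shows how close the copies are. The coding sequences of Tubb2b and Tubb2a have 1335 bases each and differ at 47, an identity of 96.5%, and the longest stretch without a difference has 551 bases. Their last 60 coding bases (1276 to 1335, GENCODE) are set side by side, with capitals at the bases that differ.
Tubb2b: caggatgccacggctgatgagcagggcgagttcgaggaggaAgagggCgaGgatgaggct
Tubb2a: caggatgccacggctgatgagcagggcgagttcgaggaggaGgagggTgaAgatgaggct
Of the 50-base stretches of Tubb2b transcripts, 36.9% also occur in other genes, chiefly Tubb2a (31.3%). The deposited counts hold reads that align uniquely, per the file headers, and reads from shared stretches may be missing from both genes; their part in the values was not tested.

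Tubb2a did not have the course of Tubb2b. At 6 h it stood at 66.5, 62.9, 62.4 and 57.9 CPM with dFz7-21, 62.0, 52.8, 58.9 and 59.4 CPM with Fz7-21S, and 47.8, 45.6, 61.2 and 63.0 CPM with DMSO. At 24 h it stood at 26.4, 28.3, 26.1 and 24.0 CPM with dFz7-21, 24.1, 24.1, 24.1 and 26.4 CPM with Fz7-21S, and 23.2, 23.7, 22.1 and 22.1 CPM with DMSO. The log2 fold change of dFz7-21 over DMSO was 0.20 at both times (adjusted p of 0.138 at 6 h and 0.0738 at 24 h, edgeR), so neither was called, and the lower 6 h DMSO values were those of replicates 1 and 2. At 24 h these 2 groups did not overlap. Without the 3 libraries with mesenchymal transcripts the value was 0.01 at 6 h (adjusted p = 0.991, edgeR). It was 0.21 at 24 h and then called higher (adjusted p = 0.0324, edgeR). The pseudogene Tubb2a-ps2, singled out after its values were seen, shares 28.6% of its 50-base stretches with Tubb2b. Its log2 fold change of dFz7-21 over DMSO was 0.49 at 6 h (adjusted p = 0.0164, edgeR) and -1.07 at 24 h, the same signs as for Tubb2b. Over Fz7-21S its log2 fold change at 6 h was 0.23, which was not called (adjusted p = 0.386, edgeR) and had overlapping groups, and that at 24 h was -0.87.

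**Figure D2:**
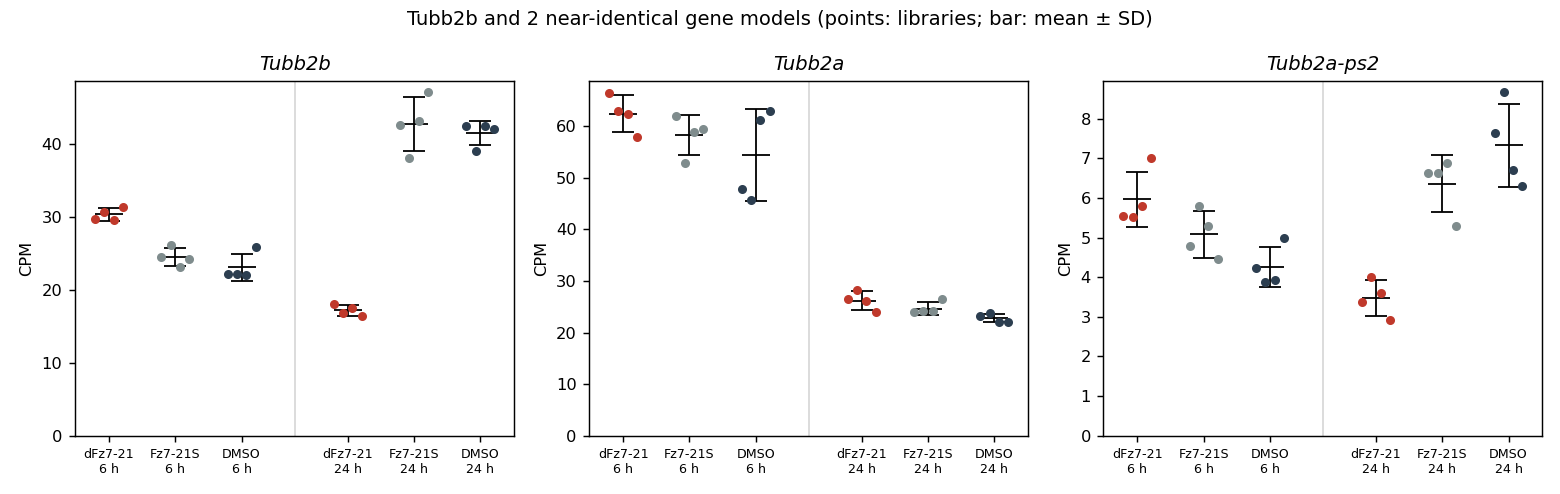
CPM of Tubb2b, Tubb2a and Tubb2a-ps2 in every library (points; bars are the mean ± SD of 4; linear axes from 0). Tubb2b and Tubb2a-ps2 have their lowest mean in dFz7-21 at 24 h, though libraries of Tubb2a-ps2 there overlap those of DMSO at 6 h. Tubb2a lies between 22.1 and 28.3 CPM in all 24 h libraries.

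At 6 h, edgeR called 6 of the 7 genes lower and 1 higher with dFz7-21 than with DMSO. Over all genes tested, 5.0% were called lower and 6.05% higher in that comparison (11.0% in either direction). With dFz7-21 against Fz7-21S at 6 h, 5 were called lower and 1 higher, where 3.83% and 3.21% of all genes were (7.04% in either direction). The dFz7-21 libraries are shared by these comparisons, so they are not independent of each other. The median log2 fold change over the 7 genes was -0.33 against DMSO and -0.26 against Fz7-21S, beside 0.01 over all genes tested in each. All 7 had no overlap between the replicates of dFz7-21 and DMSO at 6 h, 6 on the lower side and 1 on the higher side, as did 10.8% and 13.7% of all genes.

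**Figure D3:**
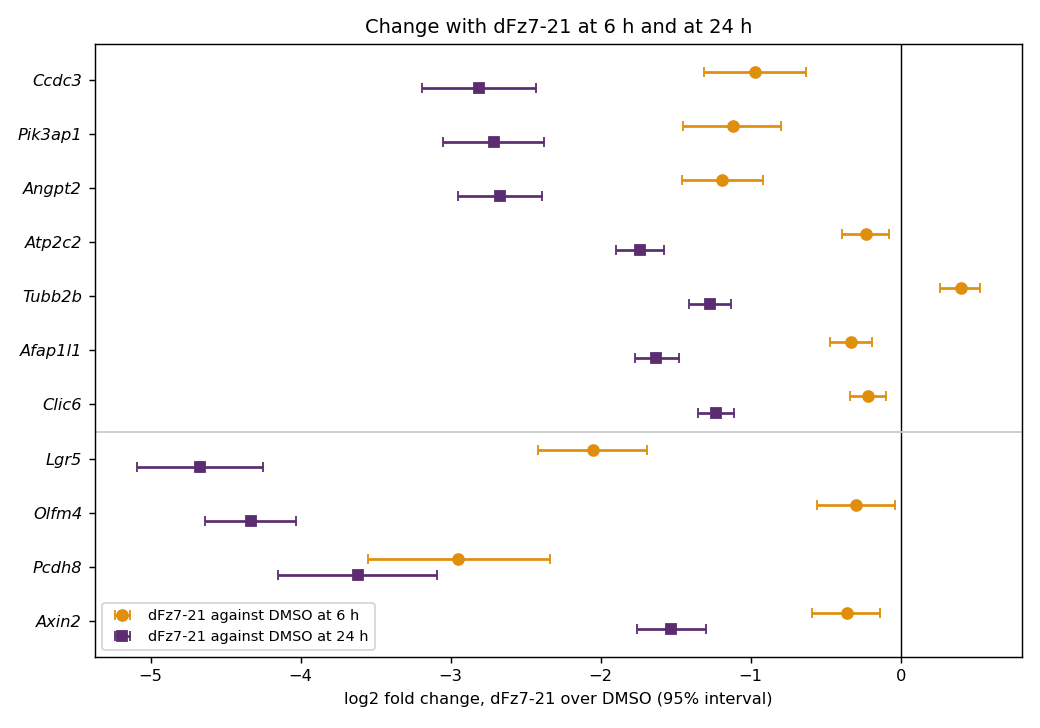
Log2 fold change of dFz7-21 over DMSO for the 7 genes and 4 crypt genes, at 6 h (circles) and 24 h (squares), with 95% intervals from the edgeR fit. All 24 h values of the 7 genes lie between -2.81 and -1.23, and Tubb2b at 6 h, at 0.40, lies right of 0.

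How much of the fall was present at 6 h was expressed as the log2 fold change at 6 h divided by that at 24 h, both over DMSO, so that 100% would mean that the whole fall was there. The share was 44.4% ± 5.40 (SE) for Angpt2, 41.4% ± 6.25 for Pik3ap1 and 34.6% ± 6.28 for Ccdc3. It was 20.5% ± 4.25 for Afap1l1, 17.8% ± 4.68 for Clic6 and 13.4% ± 4.34 for Atp2c2. For Tubb2b it was -31.1% ± 5.46, negative because the 6 h difference had the opposite sign. The first 3 shares lay above the next 3, and within either set the neighbouring shares differed by less than the sum of their SEs. With Fz7-21S in place of DMSO the shares ran from -23.6% for Tubb2b to 44.0% for Angpt2. The first 3 again lay above the next 3, but the sets were less apart. Ccdc3 (29.6% ± 6.46) and Clic6 (18.8% ± 5.77) then differed by less than the sum of their SEs. Without the 3 libraries with mesenchymal transcripts, the shares over DMSO were 49.7% for Angpt2, 44.5% for Pik3ap1 and -26.7% for Tubb2b. Those of the others then ran from 13.9% (Atp2c2) to 34.5% (Ccdc3).

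The median share over the 7 genes was 20.5%, close to the 22.6% median of the 371 genes that were called and at least 2-fold lower with dFz7-21 than with DMSO at 24 h (quartiles 3.70% and 43.8%). The 371 genes include the 7, and the 24 h value that chose them enters each share, so no test is given. Angpt2, at 44.4%, had 90 of these genes above it, and Tubb2b had 359. Being called higher at 6 h was the less common pattern, found for 4 of the 371 genes (1.08%): Tubb2b, the semaphorin receptor Plxnb1, the membrane mucin Muc4 and Tubb2a-ps2. Another 91 (24.5%) were called lower at 6 h. Among well-known crypt genes the share was 81.4% for Pcdh8, a protocadherin, 44.0% for Lgr5, the stem cell receptor for R-spondins, 23.7% for the Wnt feedback gene Axin2 and 6.94% for the stem cell glycoprotein Olfm4. Except for Tubb2b, the shares of the 7 genes lay between those of Olfm4 and Pcdh8. That span is wide, and these crypt genes were chosen with earlier results known, so lying inside it says little. Between Axin2 and Lgr5 lay only Ccdc3 and Pik3ap1.

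**Figure D4:**
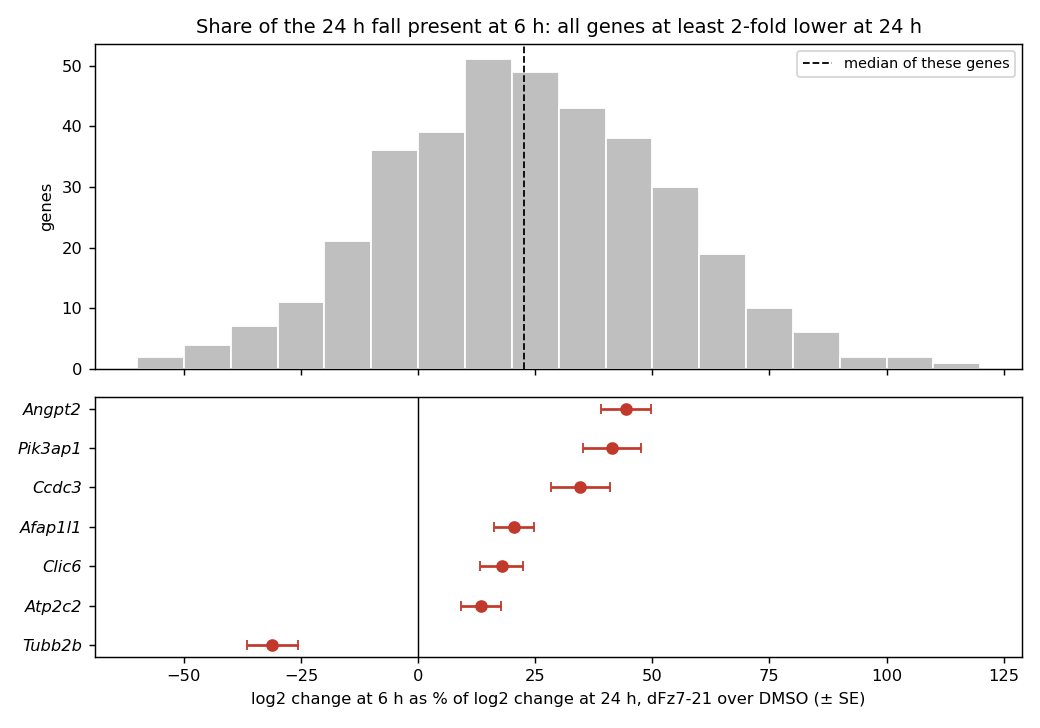
Top, histogram of the share of the 24 h log2 change present at 6 h (dFz7-21 over DMSO, in %) for the 371 genes at least 2-fold lower at 24 h, with the median of 22.6% dashed; bottom, the same share ± SE for the 7 genes. Angpt2, Pik3ap1 and Ccdc3 lie right of the median, and Tubb2b lies left of 0 at -31.1%.

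The course in culture, described without a test because the 24 h libraries chose the genes, differed in direction between the treatments. Within dFz7-21 the log2 fold change of 24 h over 6 h was -1.41 ± 0.19 for Ccdc3, -0.85 ± 0.07 for Afap1l1 and -0.82 ± 0.07 for Tubb2b. It was smaller for Angpt2 (-0.46 ± 0.14), Pik3ap1 (-0.40 ± 0.17), Atp2c2 (-0.32 ± 0.08) and Clic6 (-0.19 ± 0.06). For the last 4, most of the gap to DMSO that was added after 6 h lay in a higher DMSO level at 24 h: Clic6 averaged 42.9 ± 1.78 CPM at 24 h and 48.8 ± 2.69 CPM at 6 h with dFz7-21, against 101 ± 5.47 CPM at 24 h and 56.8 ± 1.70 CPM at 6 h with DMSO (SD, n = 4 each). For Ccdc3 the larger part was a lower level with dFz7-21 itself, which averaged 1.22 ± 0.390 CPM at 24 h and 3.24 ± 0.255 CPM at 6 h, against 8.56 ± 1.52 and 6.37 ± 0.928 CPM with DMSO at those times.

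Without dFz7-21 the levels were higher at the later time. In Fz7-21S libraries the log2 fold change of 24 h over 6 h was 1.19 ± 0.15 (SE) for Pik3ap1, 1.08 ± 0.12 for Angpt2, 1.08 ± 0.07 for Atp2c2, 0.80 ± 0.07 for Tubb2b, 0.63 ± 0.06 for Clic6, 0.49 ± 0.16 for Ccdc3 and 0.29 ± 0.07 for Afap1l1. The median over the 7 was 0.80, beside 0.03 over all genes tested. In DMSO libraries the same change ran from 0.42 (Ccdc3) to 1.19 (Pik3ap1). Libraries of 6 h and 24 h overlapped for Ccdc3 in DMSO, for Afap1l1 in Fz7-21S, and for Angpt2 and Pik3ap1 in dFz7-21.

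**Figure D5:**
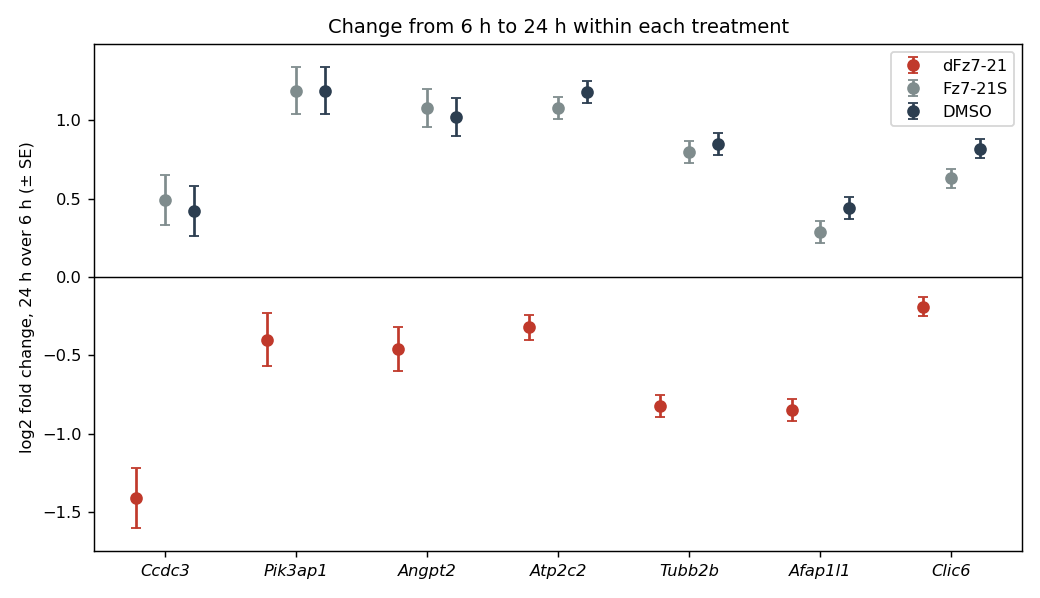
Log2 fold change of 24 h over 6 h within dFz7-21, Fz7-21S and DMSO for each gene, ± SE. All 7 points of dFz7-21 lie below 0 (-1.41 to -0.19), and all points of Fz7-21S and DMSO lie above it (0.29 to 1.19).

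Between Fz7-21S and DMSO at 6 h no difference was called for the 7 genes. EdgeR called none, 0 of 7 had an unadjusted p below 0.05, and DESeq2 called none, while over all genes edgeR called 1 (0.00648%), 614 had an unadjusted p below 0.05 and DESeq2 called 17. The 95% interval of the log2 fold change of Fz7-21S over DMSO at 6 h was -0.56 to 0.06 for Pik3ap1, -0.50 to 0.16 for Ccdc3 and -0.23 to 0.28 for Angpt2, and within -0.21 to 0.22 for the other 4. At 24 h, given without a test, the log2 fold change ran from -0.25 (Pik3ap1) to 0.08 (Angpt2), and the groups did not overlap for Afap1l1 and Clic6 (-0.23 each).

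Per length of the gene model, in the deposited RPKM, Clic6, Tubb2b and Afap1l1 were the highest, Ccdc3, Angpt2 and Pik3ap1 the lowest, and Atp2c2 lay between them at 24 h without overlap with either. With dFz7-21 at 6 h the mean level was led by Tubb2b at 15.8 RPKM, above Clic6 (13) without overlap, and Ccdc3 (1.22), Angpt2 (1.20) and Pik3ap1 (1.06) came last and overlapped. With dFz7-21 at 24 h it was 11.5 RPKM for Clic6, 8.97 for Tubb2b, 6.94 for Afap1l1, 3.09 for Atp2c2, 0.880 for Angpt2, 0.813 for Pik3ap1 and 0.460 for Ccdc3, and the libraries overlapped only between Angpt2 and Pik3ap1. With DMSO at 24 h the mean RPKM was 26.6 for Clic6, 21.4 for Tubb2b, 21.1 for Afap1l1, 10.2 for Atp2c2, 5.51 for Angpt2, 5.25 for Pik3ap1 and 3.19 for Ccdc3. The libraries overlapped there between Tubb2b and Afap1l1 and between Angpt2 and Pik3ap1, and the other neighbours did not overlap. The 3 genes with the larger share at 6 h were thus also those with the lowest levels.

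Relatives of the 7 genes were examined in 6 family lists, and in none of them were all tested members called in 1 direction. The shares of all genes called with dFz7-21 against DMSO, 5.0% lower and 6.05% higher at 6 h and 17.7% lower and 18.2% higher at 24 h, are the background for the counts that follow. Transcripts of the Tie receptors were scarce: Tek reached 0.386 CPM and Angpt1 0.127 CPM at most, both too few to test, and Tie1 and Ptprb were tested and not called at either time. Of 13 tested B cell adaptor and PI3-kinase genes, 1 was called lower and 1 higher with dFz7-21 than with DMSO at 6 h, and 3 lower and 1 higher at 24 h (2 lower and 0 higher without the 3 libraries with mesenchymal transcripts). Pik3r1, a regulatory subunit of PI3-kinase, had a log2 fold change of -0.66 ± 0.10 at 6 h (adjusted p = 0.000112, edgeR) and -0.58 ± 0.10 at 24 h (0.000117). The adaptor Blnk had 0.40 ± 0.06 at 6 h (adjusted p = 8.96e-05, edgeR) and -0.07 ± 0.06 at 24 h, where it was not called.

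Atp2c1, the closest relative of Atp2c2, averaged 78.6 CPM with dFz7-21 and 92.5 CPM with DMSO at 24 h, a log2 fold change of -0.24 ± 0.08 (adjusted p = 0.0173, edgeR; 0.0715 without the 3 libraries), and was not called at 6 h. It was the only one of 7 tested genes on the calcium pump list called lower at 24 h. Atp2a3 was called higher at both times (0.27 at 6 h, adjusted p = 0.00944, edgeR, and 0.33 at 24 h), and the 6 h call was lost without the 3 libraries (0.11). Of 11 other tubulin genes, Tubb5 was called lower at both times (log2 fold change -0.29 at 6 h and -0.55 at 24 h) and Tubb3 lower at 24 h (-0.95, adjusted p = 0.0472, edgeR; -1.85 without the 3 libraries). Tubb6 was called higher at 24 h (1.07, adjusted p = 0.0486, edgeR), but that rested on replicate 3 of dFz7-21 with its mesenchymal transcripts, at 31.3 CPM against 4.76 to 6.79 CPM in the other 3 libraries. Without the 3 libraries the Tubb6 value was 0.01 (adjusted p = 0.987, edgeR). In the AFAP list, Afap1 was lower at 24 h (-0.58, adjusted p = 0.0121, edgeR), and the cortactin gene Cttn was higher at both times (0.22 and 0.23; the 6 h call was lost without the 3 libraries, at an adjusted p of 0.0656 by edgeR). In the CLIC family, Clic4 was lower at 24 h (-0.33, adjusted p = 0.00474, edgeR), Clic5 higher at 24 h (0.76, 0.000522) and Clic1 higher at 6 h (0.36, 0.00784; 0.164 without the 3 libraries). Without the 7 genes, the median log2 fold change at 24 h was between -0.07 and 0.20 in each list but that of the Tie receptors. There it was 1.08, over Tie1 and Ptprb alone, which were scarce (at most 0.611 and 1.05 CPM) and not called.

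Since several of the genes are known from other cell types, markers of those cells were summed in every library. For endothelial cells the sum of 8 markers was 8.36 to 11.1 CPM with dFz7-21, 13 to 19.6 CPM with Fz7-21S and 14.0 to 17.0 CPM with DMSO at 24 h. Its largest part was Egfl7, at means of 6.70, 8.65 and 7.49 CPM in those groups, which was not called against DMSO (-0.16 ± 0.15, adjusted p = 0.425, edgeR). Esam averaged 1.95, 5.61 and 5.70 CPM. Plvap (0.247 CPM with dFz7-21, 0.204 CPM with DMSO) and Kdr (0.132 and 0 CPM) were not lower, but both had too few reads to be tested. The Kdr mean with dFz7-21 had an SD of 0.263 CPM. The defining endothelial markers Cdh5 and Emcn had no reads in any library, Kdr stayed at or below 0.983 CPM and Pecam1 at or below 0.657 CPM. Of the 4 tested, Esam (-1.55 ± 0.17) and Vwf (-0.80 ± 0.27) were called lower than with DMSO at 24 h, the call for Vwf being lost without the 3 libraries (adjusted p = 0.061, edgeR). At 6 h none was called against DMSO, and Pecam1 was called lower against Fz7-21S (-1.52, adjusted p = 0.0423, edgeR). At 6 h the endothelial sums were 8.57 to 10.2 CPM with dFz7-21, 8.73 to 10.9 CPM with Fz7-21S and 9.54 to 12.4 CPM with DMSO.

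For immune cells the sum of 8 markers was 9.88 to 11.1 CPM with dFz7-21, 4.83 to 7.56 CPM with Fz7-21S and 5.52 to 7.29 CPM with DMSO at 24 h. Most of it was the integrin gene Itgam, at a mean of 9.26 CPM with dFz7-21, 4.6 CPM with Fz7-21S and 5.34 CPM with DMSO at 24 h. The macrophage marker Cd68 averaged 0.922 CPM with dFz7-21, 1.31 CPM with Fz7-21S and 1.08 CPM with DMSO and was not called. The B cell marker Cd79a reached 0.186 CPM at most, and Adgre1, another macrophage marker, 0.0369 CPM. For neurons and glia the sum of 6 markers was 2.79 CPM or less in every library, and Sox10 had no reads. Mesenchymal sums were high at 24 h in 1 dFz7-21 library, whose levels of Ccdc3 (1.30 CPM) and Angpt2 (2.47 CPM) lay among or below those of the other 3 (0.697 to 1.64 and 2.92 to 3.71 CPM). In DMSO at 6 h they were high in replicates 1 and 2. Ccdc3 and Angpt2 stood at 5.20 and 8.30 CPM in replicate 1, the lowest of that group, and at 7.45 and 9.92 CPM in replicate 2. The part of endothelial, immune or mesenchymal cells in the values of the 7 genes was not tested. The 24 h log2 fold changes stayed between -2.96 and -1.16 over all 7 genes under every setting tried, left-out libraries included.

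In the Fz7-21S and DMSO groups at 24 h, variation between replicates was shared with Lgr5 for some of the 7 genes. Among Fz7-21S 24 h libraries, Ccdc3 was lowest in replicate 1 and Angpt2 in replicate 3. Replicate 4, which stood apart, was lowest for Pik3ap1, Atp2c2, Afap1l1, Clic6 and Lgr5 and highest for Tubb2b. Its summed Paneth cell markers were 5590 CPM, against 3340 to 3530 CPM in the other 3. Whether the makeup of that library sets these values was not tested. Among DMSO 24 h libraries, replicate 3 was highest and replicate 1 lowest for Ccdc3, Pik3ap1, Angpt2 and Lgr5. The other genes did not follow that order: Atp2c2 was highest in replicate 4 and Clic6 in replicate 2, and Tubb2b and Afap1l1 were lowest in replicate 2.

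Genes with the most similar profiles over the 24 libraries were ranked by the root mean square distance between centred log2 CPM, a description in which all points share the same libraries. The 24 h libraries that chose the 7 genes enter the distance, so genes with a 24 h fall of similar size are favoured as neighbours. Pik3ap1 and Angpt2 were each other's nearest gene, at 0.23. Ccdc3 was nearest to Msi1 (0.26), an RNA-binding protein gene, then Mex3a (0.34) and the Wnt target Sp5 (0.35). Pik3ap1 and Angpt2 both had Cbs, the cystathionine synthase gene, next (0.29 and 0.32), and then Vwa2 (0.30) and Gm34567 (0.35). Atp2c2 was nearest to Cpn1 (0.16), Tent5c (0.21) and Dpysl5 (0.22).

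Afap1l1 was nearest to Ephb3 (0.15), a receptor for ephrins in crypts, then Rtn4rl1 (0.18) and Fgfr2 (0.19). Clic6 was nearest to Mycl and Rbbp8nl (0.14 each) and Tox (0.15). Tubb2b was also nearest to Mycl (0.19), with Prss12 (0.19) and Trp53i11 (0.20). None of the 3 genes nearest to Tubb2b was called higher at 6 h (log2 fold change 0.03, 0.29 and 0.20). Between the 7 genes themselves the distance ran from 0.23 for Pik3ap1 and Angpt2 to 0.73 for Angpt2 and Tubb2b, and Atp2c2 and Clic6 (0.24) and Tubb2b and Clic6 (0.25) were the next closest.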

How the data were processed

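Polyadenylated RNA of 24 organoid samples was sequenced, 4 for each of 6 groups taken from the labels. The authors deposited a count of uniquely aligned reads for each gene model and an RPKM adjusted by a size factor, both per the file headers. The submitters' processing notes name GSNAP and GRCm38. The version of GSNAP, the annotation and the use of strand were not given in the sources used here. RPKM entered no test. RefSeq symbols (GRCm38.p6) matched 31049 of 36528 IDs. RNA was isolated with an RNeasy Micro kit, per the labels.

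The counts were tested with edgeR 4.0.16 in R 4.3.3 (robust quasi-likelihood F test, TMM factors, filterByExpr, 15429 genes) in 1 fit of 24 libraries with a coefficient for each group. The Benjamini-Hochberg adjustment ran over every tested gene, and calls were made at an adjusted p below 0.05. Standard errors are those implied by the log2 fold change and its F value. Log2 CPM used a prior count of 2. The test was checked on simulated counts. Replicates differed beyond sampling noise (chi-square over degrees of freedom 2.77 to 88.9).

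The 7 genes, the family and marker lists and the libraries to leave out were chosen with earlier results of these data known. The text names the 7 genes, list members called at 6 h or 24 h and closest paralogs, 4 crypt genes for comparison, and the 3 nearest genes of each. RefSeq supplied the promoter windows, and GENCODE M21 the coding sequences and the search for 50-base stretches shared between genes. Alternatives were RLE factors, no filter, the replicate number as a block, only the 2 groups compared, DESeq2 1.42.0, leaving out each library, the 3 libraries with mesenchymal transcripts, and (chosen after seeing the data) the 5 that stood apart. The change of Fz7-21S over time was planned as a test and is given as a description, since Fz7-21S at 24 h may have entered the choice of the genes. Relatives and markers were also fitted without the 3 libraries (chosen after seeing the data). Some marker genes are not reported here.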

Additional observations from a re-analysis of the deposited data

Results flagged for a closer look

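The Tubb2b level of DMSO 6 h replicate 4, 25.9 CPM, lay far from the other 3 libraries of its group (22 to 22.2 CPM). That of DMSO 24 h replicate 2, 39.0 CPM, lay below the other 3 (42.0 to 42.5 CPM). In 42 groups of 4 examined, 1 in 20 would stand out like this by chance. The Tubb2b difference of dFz7-21 over DMSO at 6 h, 0.40 on the log2 scale, had the opposite sign to that at 24 h (-1.27) in every library. The difference between the times was not tested, since the 24 h values chose the gene.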

How the results depend on the processing

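No called value changed sign among 1365 recomputed values, and 1308 kept their direction and their side of the threshold. Over the settings other than leaving out 1 library, the number of the 7 genes called was 5 to 7 for dFz7-21 against DMSO at 6 h, 5 to 7 against Fz7-21S, and 0 for Fz7-21S against DMSO. Leaving out 1 library gave 5 to 7, 4 to 7 and 0. The median share at 6 h ran from 18.8% to 22.4%. With the replicate number as a block, the Atp2c2 call against DMSO at 6 h was lost (adjusted p = 0.0514), and no other member's call changed. Same-numbered libraries did not deviate together (correlations of -0.104 to 0.137), so the numbers were not taken as pairs. Atp2c2 was also lost with no filter (0.0632), without the 3 libraries with mesenchymal transcripts (0.182) and without the 5 that stood apart (0.0723). Against Fz7-21S it was called with only the 2 groups fitted (0.0256) and without the 5 libraries (0.0333). Clic6 against Fz7-21S was lost with RLE factors (0.055), no filter (0.0964) and without the 3 libraries (0.063). The count of all genes called with dFz7-21 against DMSO at 6 h, 1704, was 3640 with only the 2 groups fitted, 698 without the 3 libraries and 3134 without Fz7-21S 24 h replicate 4. Against Fz7-21S, 1086 genes became 3159 with only the 2 groups, 2863 without the 5 libraries, and 638 to 2259 without 1 library. For Fz7-21S against DMSO, 1 gene became 4 with only the 2 groups, 17 with DESeq2, 0 without the 3 or the 5 libraries, and 0 to 29 without 1 library. The cause of these moves was not tested. Ccdc3 at 24 h with dFz7-21 rests on 16 to 34 reads a library, which limits its fold change most.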
